A study of Glycine max with 16 samples.

Results

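The drying response of soybean line A005B was read as the difference between leaves of that line dried in air for 6 h and leaves of watered plants of the same line. A005B is 1 of 3 transgenic lines (A005B, A004A and B010C) that over-express GmWRKY54, and the line labelled null, or B001A, carries no over-expression. Seedlings of Glycine max were 2 weeks old, grown on soil in a greenhouse, and trifoliate leaves were taken. The groups used were therefore dried A005B, dried A004A, dried B010C and dried null, and the watered leaves of each of the same lines. The labels list 2 samples for each of these 8 groups, and the deposited table holds 1 column for each group, so there was no replicate error within a group and the difference between the 2 A005B columns carried no test. The promoter of the transgene and the number of plants behind a sample are not given in the labels. No watered group was held for the same 6 h, so drying and elapsed time cannot be told apart.

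Members were the genes with at least 1 RPKM (reads per kilobase of gene, scaled to the mapped reads of a column) in either A005B column, which gave 33995 genes of 56044 in the table. The 22049 genes left out held 0.414% of all RPKM in dried and 0.37% in watered A005B leaves, and 9692 of them were listed at 0 in both. The member nearest the limit reached 1.00008 RPKM and the nearest gene outside it 0.999508 RPKM. Differences are on the scale of log2(RPKM + 1), dried minus watered, where 1 is a 2-fold difference. This scale understates the difference of genes with low values. The files pair no gene identifier with a name, and the reference gene table matched 0 of them, so genes are given by identifier and the level of the GmWRKY54 transgene could not be checked.

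As background, a leaf that loses water closes its stomata and builds up abscisic acid, a hormone that switches on many genes for protective proteins, compatible solutes and regulators, while transcripts for photosynthesis and growth usually decline. WRKY proteins are plant transcription factors that bind W-box sequences in promoters, and many of them act in stress responses.

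Some genes split the lines differently in watered and in dried leaves. For 39 genes, the watered columns of A005B and B010C lay 2-fold or more below those of A004A and null, whereas among the dried columns A005B and A004A lay 2-fold or more above B010C and null. The same split with A005B and A004A high in both treatments was seen for 2 genes. Of the 39 genes, 35 counted as at least 2-fold higher in dried A005B, which is 0.565% of all genes so counted. In null, 31 of the 39 were at least 2-fold lower when dried, against 18.6% of all genes of that line. The 39 genes were picked with A005B low when watered and high when dried, and null the other way round, which favours both counts. The cause of the split was not tested. Because of this split, the counts at 2-fold and 16-fold were also taken with the watered null column in place of watered A005B. The limma calls given below were also taken with these 2 watered columns exchanged. The remaining counts were not retaken.

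Drying of A005B leaves went with a wide exchange of transcripts. At least 2-fold higher levels in dried leaves were seen for 6190 genes, 18.2% of the members, and at least 2-fold lower levels for 8187 genes, 24.1%. The remaining 19618 genes, 57.7%, lay within 2-fold. Large differences were mostly increases, since 556 genes (1.64%) were 16-fold or more above and 211 (0.621%) 16-fold or more below their watered level. At 64-fold the numbers were 105 above and 18 below. The 16-fold counts depend on the pseudocount, and with 0.1 in place of 1 they were 1413 above and 773 below. The genes on either side of the 2-fold line stood at 1.0002 and 0.9997 on the log2 scale. The middle 50% of the members lay between -0.969 and 0.654, and the median was -0.165. Median-of-ratios scaling, which centres the differences by construction, gave a median of 0.006 and 7052 higher and 6931 lower genes at 2-fold. Quantile normalization gave 6701 higher and 7449 lower genes. At 16-fold the 2 scalings gave 623 and 586 higher and 167 and 213 lower genes. Against the watered null column the counts were 5927 higher and 7835 lower at 2-fold, and 506 and 185 at 16-fold.

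**Figure D1:**
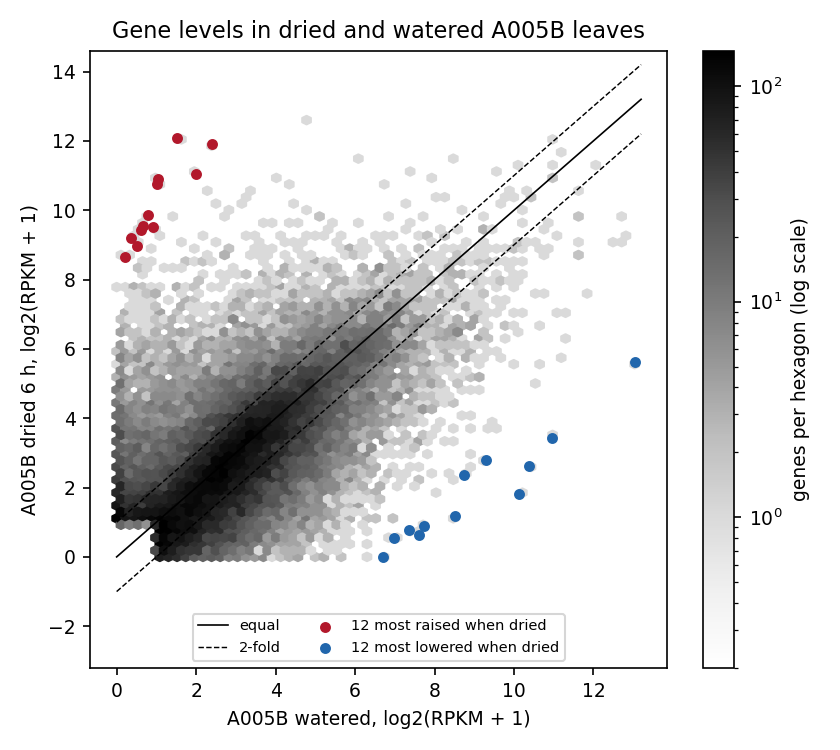
Level of each of the 33995 genes in dried A005B leaves (vertical) against watered A005B leaves (horizontal), both as log2(RPKM + 1), with shading for the number of genes, a solid line for equal levels and dashed lines for 2-fold differences. The 12 genes with the largest increase (red) had at most 4.25 RPKM in watered leaves, and the 12 with the largest decrease (blue) at most 48.3 RPKM in dried leaves.

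The largest increase was that of Glyma.09G185500, which stood at 4315 RPKM in dried and 1.877 RPKM in watered A005B leaves, a log2 difference of 10.55. In dried leaves of A004A, B010C and null it stood at 3712, 2161 and 2274 RPKM, and in watered leaves of these lines at 4.497, 1.331 and 5.214 RPKM. All 4 dried columns lay far above all 4 watered columns, and dried A005B was the highest of them. Glyma.19G147200 stood at 1914 RPKM in dried and 1.059 RPKM in watered A005B leaves, a log2 difference of 9.86. Its dried levels in A004A, B010C and null were 1841, 1347 and 972.1 RPKM, and its watered levels there were 2.081, 0.6777 and 2.85 RPKM. The dried and watered columns again did not overlap. The 12 genes with the largest increases spanned log2 differences of 8.46 to 10.55. They lay between 405 and 4310 RPKM in dried and between 0.15 and 4.25 RPKM in watered A005B leaves. All 12 were at least 2-fold higher in dried leaves of each of the other 3 lines. The same held for 3826 of the 6090 genes 2-fold higher in dried A005B that reached 1 RPKM in 2 or more columns. In 5 of the 12 the difference was largest in A005B. The 12 genes were picked for their difference in A005B, which favours a high rank of that line.

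The largest decrease was that of Glyma.09G231900, at 2.495 RPKM in dried and 1118 RPKM in watered A005B leaves, a log2 difference of -8.32. Its levels in dried A004A, B010C and null leaves were 2.174, 5.285 and 11.85 RPKM, against 1055, 1017 and 1154 RPKM in the watered leaves of these lines. The watered levels were close to each other, and the dried ones were all low. Glyma.02G083700 stood at 5.106 RPKM in dried and 1319 RPKM in watered A005B leaves, a log2 difference of -7.76. In A004A, B010C and null it stood at 8.827, 42.4 and 18.25 RPKM dried and at 556.5, 579.2 and 599.6 RPKM watered. Watered A005B was the highest of the 8 columns for this gene and dried A005B the lowest. The gene with the preceding identifier was the most abundant transcript of watered A005B leaves. It had 48.34 RPKM in dried and 8396 RPKM in watered A005B leaves, a log2 difference of -7.41. In the watered leaves of the other lines it had between 1941 and 3834 RPKM. In dried leaves of A004A, B010C and null it had 58.22, 958.7 and 123.1 RPKM, and its log2 difference in B010C was -1.94.

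Of the 12 genes with the largest decreases, 10 were at least 2-fold lower in dried leaves of each of the other lines. The same held for 4665 of the 8153 genes 2-fold lower in dried A005B that reached 1 RPKM in 2 or more columns. The other 2 of the 12 differed more widely between lines. One of them was listed at 0 in dried and stood at 102.5 RPKM in watered A005B leaves, and in A004A it was listed at 0 dried and stood at 21.45 RPKM watered. In B010C it stood at 43.26 RPKM dried and 18.43 RPKM watered, and in null at 21.83 RPKM dried and 42.06 RPKM watered. The other stood at 4.108 RPKM in dried and 428.9 RPKM in watered A005B leaves, and its log2 difference was -2.09 in A004A, -1.89 in B010C and -0.32 in null. For none of the 24 genes with the largest differences did limma call the response of A005B different from that of the other lines (lowest adjusted p = 0.215). Each response has 1 value per line, so a p above the threshold does not show that the lines respond alike.

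The most abundant transcripts of A005B leaves were largely replaced. The 10 genes with the highest levels in dried leaves made up 5.11% of all RPKM in dried and 1.68% in watered A005B leaves. The 10 highest genes of watered leaves made up 1.02% in dried and 7.12% in watered A005B leaves, and 9 of the 10 were at least 2-fold lower in dried leaves. The 2 lists shared 1 gene. Of the 100 highest genes in each column 28 were shared, and of the 1000 highest 376. Of the 100 highest genes of dried leaves, 70 were higher than in watered leaves and 9 were lower, each by 2-fold or more. Of the 100 highest of watered leaves, 3 were higher and 74 lower in dried leaves by the same measure. These lists were picked for high values in 1 column, which favours such differences. In dried A005B leaves 1415 genes made up the first 50% of all RPKM, against 1192 genes in watered leaves. In null the numbers were 1325 dried and 1238 watered. They ran the other way in A004A, with 1251 dried and 1469 watered, and in B010C, with 1067 dried and 1222 watered. Expressed as shares of each column, 46.3 percentage points of all RPKM lay on different genes in dried and watered A005B leaves, where A004A had 49, B010C 46.5 and null 39.8 percentage points. The 419 genes with the largest gains carried the first 50% of the gain in A005B, and 294 genes the first 50% of the loss.

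**Figure D2:**
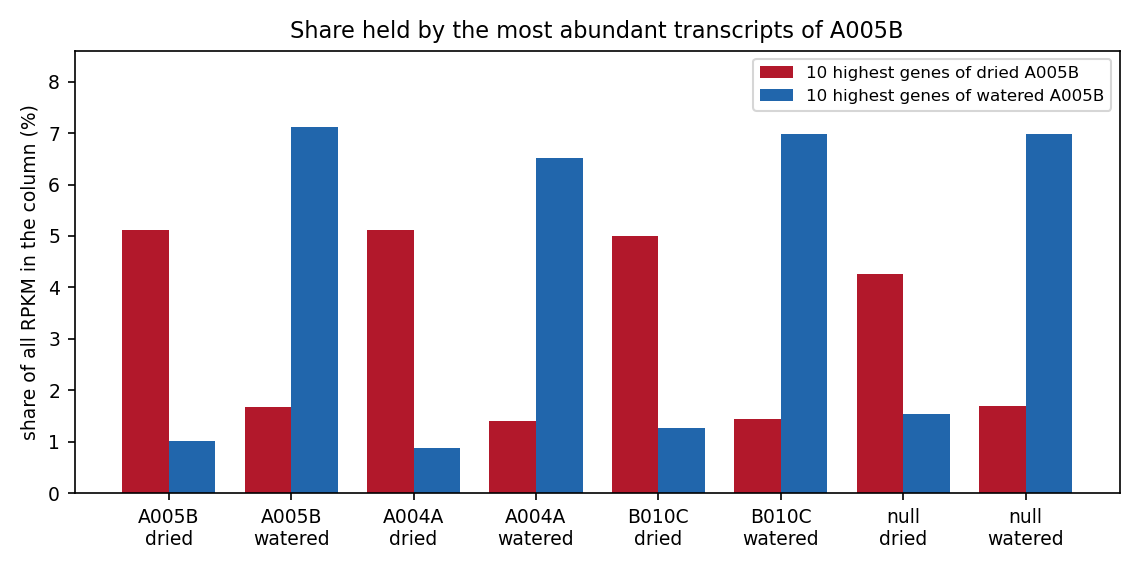
Share of all RPKM (per cent) held in each of the 8 columns by the 10 highest genes of dried A005B leaves (red) and the 10 highest genes of watered A005B leaves (blue), 1 bar per column without replicates. The dried list holds 4.26% to 5.11% in the dried columns and 1.41% to 1.69% in the watered ones, and the watered list 0.869% to 1.54% in dried and 6.51% to 7.12% in watered columns.

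The share of genes higher and lower in dried A005B leaves varied with abundance. Genes were classed by their mean over the 6 columns of the other lines, although membership itself rests on the A005B values. Among the 2370 members with a mean under 1 RPKM, 21.4% were higher and 16.6% lower in dried A005B leaves by 2-fold or more. Each of these members reached 1 RPKM in an A005B column and so lay above that mean there. This filter shapes both shares of the lowest class. Among the 12121 members with a mean of 1 to 5 RPKM, 13.8% were higher and 24.7% lower, and in the 12673 genes of 5 to 20 RPKM 17.2% were higher and 24.7% lower. In the 5702 genes of 20 to 100 RPKM the shares were 25.6% and 23.2%, and in the 1014 genes of 100 to 500 RPKM they were 33.3% and 29.4%. Among the 115 genes above 500 RPKM 29.6% were higher and 46.1% lower, so lower genes outnumbered higher ones in the most abundant class. Its median log2 difference was -0.749. With values as deposited, higher genes thus outnumbered lower ones in the lowest class and between 20 and 500 RPKM, and lower genes did elsewhere. In weakly expressed genes the pseudocount compresses differences.

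Of the 56044 genes in the table, 20.7% were listed at 0 in dried and 22.3% in watered A005B leaves. Of the 33995 members, 407 reached at least 1 RPKM in dried leaves and were listed at 0 in watered leaves, and 105 of them reached at least 5 RPKM. The highest of these stood at 238 RPKM in dried A005B leaves, and at 200, 413 and 144 RPKM in dried A004A, B010C and null leaves. It was at most 1.27 RPKM in the watered leaves of any line. Of the 407 genes, 161 also reached 1 RPKM in the dried leaves of each of the other lines, and 69 reached it in the dried leaves of none of them. Among all 56044 genes, 29009 reached 1 RPKM in dried A004A, 28847 in dried B010C and 29680 in dried null leaves. Genes listed at 0 in 1 A005B column are members only through the other column. In the other direction, 203 genes at 1 RPKM or more in watered leaves were listed at 0 in dried leaves, and 55 of these had at least 5 RPKM when watered. A listed 0 can be a failed estimate, so no ratio of RPKM is given for these genes, and any log2(RPKM + 1) difference of such a gene depends on the pseudocount.

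The response of A005B was next set beside that of null, A004A and B010C, with which it shares no column. In limma, the mean response of the other 3 lines was above 0 in 8838 of 34400 tested genes (25.7%) and below 0 in 12560 (36.5%) at an adjusted p under 0.05. Of the 6090 tested genes at least 2-fold higher in dried A005B leaves, 5538 (90.9%) were called higher in the other lines, 33 were called lower and 519 were not called. Those 5538 genes were 62.7% of the genes called higher in the other lines. Of the 8153 genes at least 2-fold lower, 7551 (92.6%) were called lower in the other lines, 31 were called higher and 571 were not called. They were 60.1% of the genes called lower there. Of the 6090 higher genes, 594 were under 2-fold higher in every other line. Of the 8153 lower genes, 642 were under 2-fold lower in every other line. Across genes, the responses of A005B and of the mean of the other lines correlated at Pearson r = 0.934 with a slope of 0.973. Against single lines, r was 0.922 with A004A, 0.913 with B010C and 0.885 with null, and the slopes were 0.891, 0.88 and 0.995 in the same order. Genes are not independent replicates, and any scaling shared by the dried columns enters these values.

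**Figure D3:**
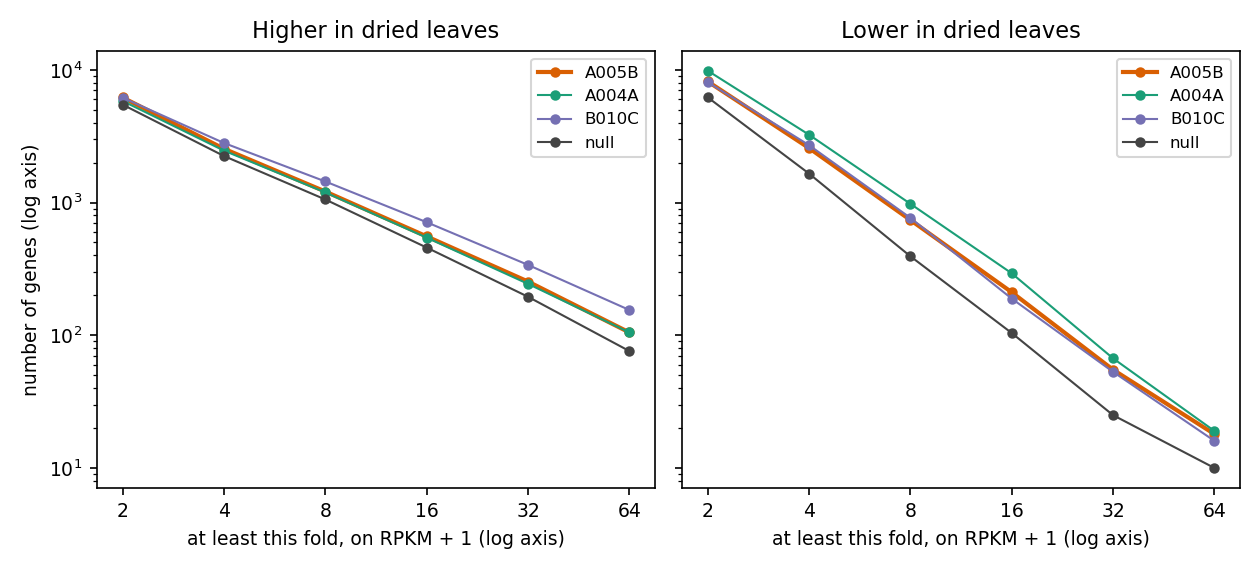
Number of genes (log axis) at least 2-, 4-, 8-, 16-, 32- and 64-fold higher (left) or lower (right) in dried than in watered leaves of each line, among genes with at least 1 RPKM in either column of that line, 1 value per line. A005B has 556 higher and 211 lower genes at 16-fold, where A004A has 544 and 293, B010C 711 and 189, and null 458 and 104.

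The counts of A005B were set beside those of the other lines. At 16-fold, 556 genes were higher in dried A005B leaves, against 544 in A004A, 711 in B010C and 458 in null. At 16-fold 211 genes were lower in A005B, against 293 in A004A, 189 in B010C and 104 in null. At 2-fold, 18.2% of the members of A005B were higher, against 17% in A004A, 18.5% in B010C and 16.4% in null, each over the genes of that line. The lower shares at 2-fold were 24.1% in A005B, 28.8% in A004A, 24.2% in B010C and 18.6% in null. At 16-fold the higher shares were 1.64%, 1.59%, 2.13% and 1.37% in the same order, and the lower ones 0.621%, 0.856%, 0.566% and 0.312%. These are counts of single columns with no replicate error.

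Few genes passed a test of the difference between the response of A005B and that of the other lines. Limma, fitted to the 4 responses with 2 residual degrees of freedom per gene, called 7 of 34400 genes (0.0203%) with a higher response in A005B and 2 genes (0.00581%) with a lower one. With an unadjusted p below 0.05, 881 genes were higher (2.56%) and 571 lower (1.66%), together 4.22% of those tested. That share is not above the 0.05 expected at this threshold if no gene differed. The lone A005B response was assumed to vary as the responses of the other lines do. The number of calls depended on single lines. Without null there were 0 calls (1325 genes at an unadjusted p under 0.05). The differences themselves were about as large without null, at 6.29 for Glyma.10G043100 and -3.94 for Glyma.14G084100. Every fit that left out 1 line, whichever it was, had 1 residual degree of freedom. Without A004A there were 124 higher and 95 lower calls and without B010C 20 and 10, and both sets held all 9 genes. With the watered null and watered A005B columns exchanged there were 0 calls (963 genes at an unadjusted p under 0.05), and there were 0 with a pseudocount of 0.1 (1428 genes) or quantile normalization (1467 genes).

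Glyma.10G043100 had the largest difference. It stood at 67.5 RPKM in dried and 0.14 RPKM in watered A005B leaves. In A004A it stood at 40.6 RPKM dried and 63.9 RPKM watered, and it was at most 0.107 RPKM in B010C and null in either treatment. Its response in A005B exceeded the mean of the other lines by 6.14 ± 0.40 SE on the log2 scale (limma, adjusted p = 0.0284; range over the alternatives 0.000365 to 0.209). Glyma.13G130600 stood at 54.2 RPKM in dried and 0.402 RPKM in watered A005B leaves, and at 34.5 RPKM dried and 47.4 RPKM watered in A004A. In null it stood at 0.433 RPKM dried and 1.81 RPKM watered, and in B010C at 0.17 and 0.0664 RPKM (limma, difference 5.73 ± 0.47 SE, adjusted p = 0.0367; range 0.00113 to 0.346). For both genes dried A005B lay near the levels of A004A, and watered A005B near those of B010C and null.

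The 2 genes called lower were of different kinds. Glyma.14G084100 stood at 3.62 RPKM in dried and 36.6 RPKM in watered A005B leaves. In the other lines it lay between 6.58 and 10.5 RPKM dried and between 2.69 and 5.7 RPKM watered, so the watered A005B column alone was high (limma, difference -3.91 ± 0.34 SE, adjusted p = 0.0373; range 0.00182 to 1). Glyma.09G230600 was listed at 0 in dried and stood at 13.7 RPKM in watered A005B leaves. It stood at 16.2 and 23.1 RPKM in dried A004A and B010C leaves and at 14.8 and 26.3 RPKM in watered ones, and it was listed at 0 in null in both treatments (limma, difference -3.86 ± 0.35 SE, adjusted p = 0.0378; range 0.00209 to 1). Because of the listed 0, this difference depends on the pseudocount.

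**Figure D4:**
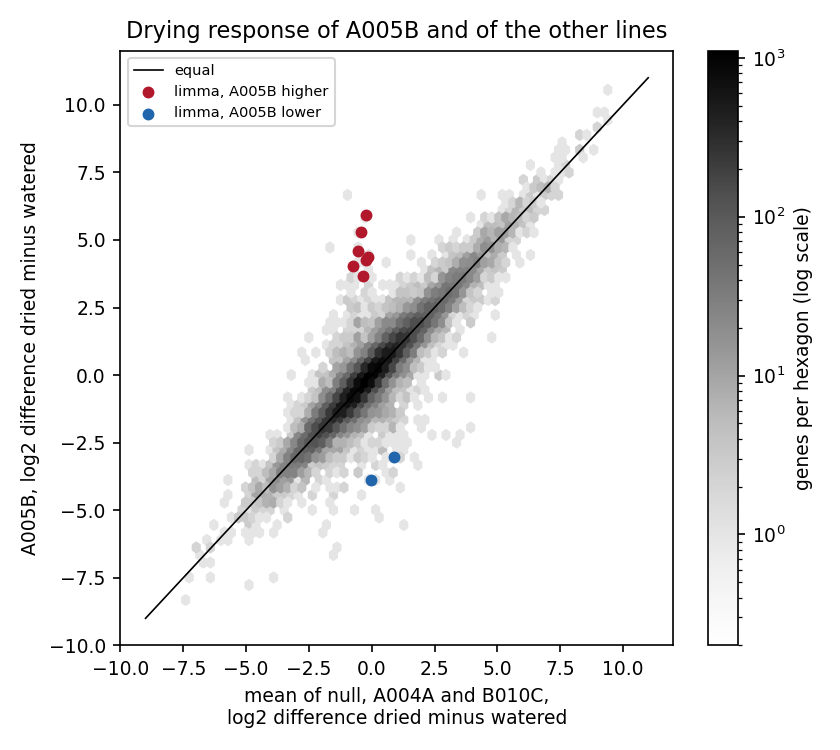
Log2 difference between dried and watered leaves in A005B (vertical) against the mean of null, A004A and B010C (horizontal) for 34400 genes, with shading for the number of genes and a line for equal responses. The 7 genes that limma called higher in A005B (red) lie between -0.76 and -0.14 on the horizontal axis, and the 2 called lower (blue) below the line.

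The pattern of Glyma.10G043100 was shared by a small set of genes, a search made after its values had been seen. Genes were counted as present at 4 RPKM or more and absent below 1 RPKM, with the other 3 lines each in 1 state in both treatments. In 11 genes on 9 chromosomes, as numbered in the identifiers, A004A was present in both treatments and A005B in dried leaves, while watered A005B, B010C and null were absent. These genes lay between 7.38 and 67.5 RPKM in dried and between 0 and 0.223 RPKM in watered A005B leaves. In A004A they lay between 4.46 and 40.6 RPKM dried and between 4.54 and 63.9 RPKM watered, and in B010C and null at most at 0.781 RPKM. The level in dried A005B was 0.984 to 2.71 times that in dried A004A. Of the 11 genes, 5 were among those called by limma. With presence set at 2 RPKM there were 23 such genes and at 8 RPKM there were 4. A switch between treatments in 1 line, with the remaining lines mixed but steady, was seen for 12 genes in A005B (11 of them present when dried), for 0 in A004A, 0 in B010C and 2 in null. The 11 genes, which were chosen for this pattern, differ between the 2 A005B columns as they differ between A004A and the lines B010C and null. Whether the plants behind the 2 A005B columns differed in anything besides drying was not tested.

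**Figure D5:**
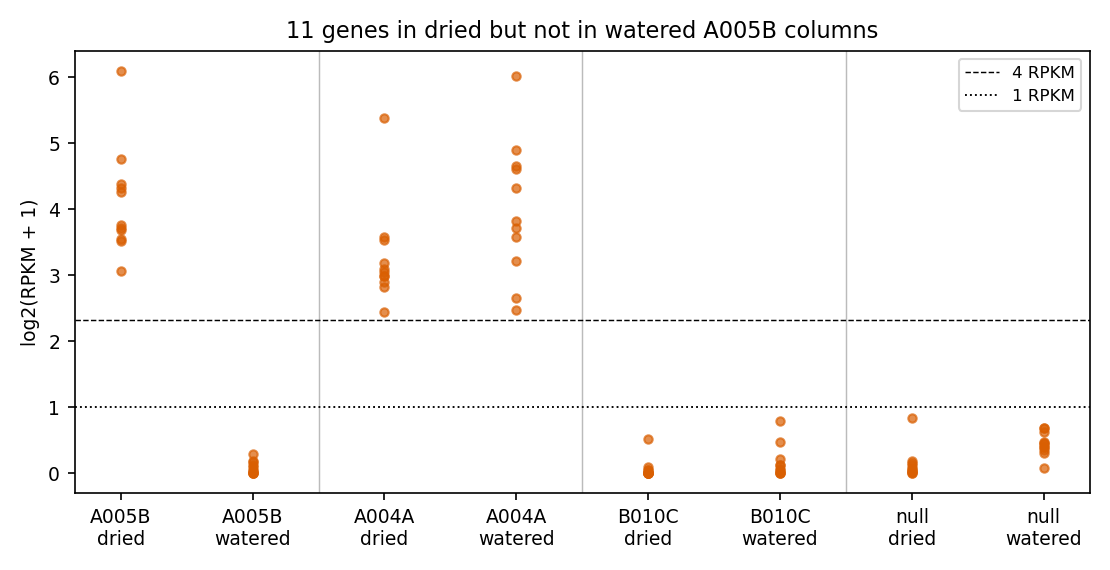
Level, as log2(RPKM + 1), of 11 genes (1 point per gene and column) in the dried and watered columns of A005B, A004A, B010C and null, with lines at 4 and 1 RPKM. All points of dried A005B and of both A004A columns lie above 4 RPKM, and those of watered A005B, B010C and null lie below 1 RPKM; the genes were chosen for this pattern.

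Genes whose response in A005B lay at least 2-fold outside the range of the other 3 lines were then split by which column stood apart. Of the 34400 tested genes, 314 had a higher and 275 a lower response in A005B. The counts were 124 and 323 for A004A, 364 and 69 for B010C, and 336 and 244 for null. For 170 of the 314 genes dried A005B was the highest dried column and watered A005B the lowest watered one. For 108 only the dried column was outermost and for 29 only the watered one. Among the 275 genes with a lower response both columns were outermost in 194, only the dried one in 23 and only the watered one in 53. The genes were chosen by the same A005B values that split them, which favours an outermost column. Neither column was outermost in 7 of the 314 and 5 of the 275. In A004A both columns were outermost for 64 genes with a higher and 193 with a lower response. The numbers were 166 and 23 in B010C, and 216 and 118 in null. Opposite directions at 2-fold or more in A005B and in each of the other 3 lines were seen for 4 genes, of which 2 were higher and 2 lower in dried A005B leaves. The lowest adjusted p among these 4 was 0.128 in limma.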

How the data were processed

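Gene values are the RPKM deposited by the authors, 1 column per line and treatment for 16 samples in the labels. Reads were aligned with TopHat, per the submitters' processing notes; for its version, the counting, the genome build and how the 2 samples of a group were combined, nothing is given in the sources used here. Depth is unknown: among genes under 0.3 RPKM in all columns, the commonest ratio between 2 columns was shared by at most 3.94% of genes, so whole reads could not be recovered. The sum of RPKM was 698632 in dried and 738209 in watered A005B leaves, and 636011 to 818267 over the 8 columns. All 8 columns had a group and 0 were left out.

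Values were used as log2(RPKM + 1). For limma (version 3.58.1, R 4.3.3), genes reaching 1 RPKM in 2 or more columns entered, and the dried minus watered response of each line was fitted with empirical Bayes moderation, a trend on mean level, two-sided tests and Benjamini-Hochberg adjustment over all 34400 genes, with a threshold of 0.05. Genes were named by size of difference or limma call, at most 2 higher and 2 lower per comparison, since identifiers have no names here; 49 gene lists and 6 promoter motifs that had been drawn up could not be used. The members, lists and tests were chosen with earlier results of these data known. Alternatives were a pseudocount of 0.1, other filters, median-of-ratios scaling, quantile normalization, another watered column and leaving out each line.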

Additional observations from a re-analysis of the deposited data

Results flagged for a closer look

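Limma's test of the difference in drying response between A005B and the mean of the other 3 lines called 7 genes with a higher and 2 genes with a lower response in A005B. A005B enters this test as 1 value per gene, with its spread assumed from the other lines, so the calls have no replicate check within A005B. The 2 largest higher ones were Glyma.10G043100 (difference 6.14 on the log2 scale) and Glyma.13G130600 (5.73). The 2 lower ones were Glyma.14G084100 (-3.91) and Glyma.09G230600 (-3.86). For the higher pair the levels in A004A were high in both treatments, and for each of the 4 genes the difference rests on 1 column per line and treatment.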

How the results depend on the processing

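No paired analysis was possible because the columns carry no replicate number; responses were taken within lines. The counts of genes at least 2-fold higher and lower in dried A005B leaves stayed within 1.5 times under all alternatives run. With a pseudocount of 0.1 the 16-fold counts became 1413 higher and 773 lower. The median log2 difference became -0.037 without a filter, 0.006 after median-of-ratios scaling, which centres it by construction, and -0.056 after quantile normalization.

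The 7 higher and 2 lower calls for A005B against the other lines became 0 and 0 with a pseudocount of 0.1, after quantile normalization, and with the watered null and A005B columns exchanged. They became 12 and 11 without a filter, with 0 of the 9 genes among them, 3 and 2 at a mean of at least 5 RPKM, and 1 and 0 after median-of-ratios scaling. Leaving out 1 line gave 0 to 124 higher and 0 to 95 lower genes, and the cause was not tested. With the exchanged columns the difference of Glyma.09G230600 became 1.31 and that of Glyma.14G084100 became 0.19 (limma, adjusted p = 1 for both). Genes with a lower mean response in the other lines numbered 6599 at a mean of at least 5 RPKM, where 19589 genes were tested. The share of genes 2-fold higher in A005B that were called higher in the other lines ranged from 84.5% to 96.0%, and for lower genes from 86.6% to 92.9%. Unknown depth and 1 column per group limit all values.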

Other observations

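Genes with large differences in A005B often had a neighbour with one, where neighbours are members with consecutive identifiers in the table on the same chromosome. Of the genes at least 4-fold higher in dried leaves that had a neighbour, 24.8% had one at least 4-fold higher, against 11.2% of all members with a neighbour. For genes at least 4-fold lower the shares were 18.9% and 10.9%. In 306 neighbouring pairs both genes were at least 4-fold higher, in 221 both were at least 4-fold lower, and in 157 they went opposite ways, of 22419 pairs. There were 10 runs of 4 to 6 consecutive genes, 6 higher and 4 lower in dried leaves. The longest, of 6 genes on chromosome 17, stood at 3.69 to 88.4 RPKM in dried and 0.0754 to 0.866 RPKM in watered A005B leaves. Of the 44 genes in such runs, 40 were at least 2-fold the same way in each of the other lines. Among tested genes at least 2-fold higher in dried A005B leaves, 3826 of 6090 were so in each other line. For lower genes it was 4665 of 8153. The genes in runs were picked at 4-fold in A005B, which favours a larger share. Neighbouring copies can share reads, and nothing in the sources used here says how the authors counted such reads.

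Between chromosomes the shares varied little. At least 2-fold higher genes made up 16% to 20.1% of the members on each of the 20 chromosomes, and at least 2-fold lower genes 22.4% to 26.2%.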
